A study of Mus musculus with 22 samples.

Results

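The genes described here are the nuclear genes for the proteins of the mitochondrial ribosome, measured by RNA-seq in mouse pluripotent cells and in cultures derived from them. Members were taken by symbol: every row of the gene count table named Mrpl or Mrps followed by a number and at most 1 letter, pseudogenes left out. This gave 80 of 34489 rows, for 78 symbols. Of these, 49 rows encode proteins with large-subunit names (Mrpl) and 31 rows encode proteins with small-subunit names (Mrps). Mrps10 and Mrps23 each have 2 rows with different gene identifiers, and their reads could be split between near-identical sequences.

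Mitochondrial ribosomes translate the few mRNAs that the mitochondrial genome encodes, all of which specify subunits of the oxidative phosphorylation complexes. Their RNA is made in the mitochondrion, whereas every protein of the particle is encoded in the nucleus, translated in the cytosol and imported. Naive pluripotent cells are known for combining respiration with glycolysis, while primed epiblast stem cells rely mainly on glycolysis.

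The study asked whether activators of AMPK, the kinase that senses low cellular energy, bring mEpiSCs, epiblast stem cells of the mouse in the primed state, back to naive pluripotency. The 22 libraries were poly(A)-selected and stranded. A single library came from naive embryonic stem cells carrying a Rex1-GFP reporter (strain label 129/Ola). Primed mEpiSCs gave 2 libraries, from the Oct4GIP line (129/Ola) and from a 129/MSM line. By the study's methods both were kept in FGF2 and Activin A, Oct4GIP on fibronectin and 129/MSM on mouse embryonic fibroblast (MEF) feeders. For reversion the cells were plated on MEF feeders for 1 day before the medium was changed, so MEFs were also present when the d8 and d16 cultures began. Oct4GIP mEpiSCs kept in basal medium (Basal), in 2iL (the standard naive medium, LIF together with a MEK and a GSK3 inhibitor), in AICAR or in AICAR+LIF gave 4 libraries at day 8 (d8) and 4 at day 16 (d16). AICAR was given at 0.5 mM for 6 days and at 1 mM from then on. After d16, cells were expanded in 2iL and are called reverted here. Of the Oct4GIP line, AICAR and AICAR+LIF cells were sampled at passages 2 and 3 (2–3p, 4 libraries). At passage 10 (10p) there were 5 Oct4GIP libraries: AICAR with and without LIF, A769662 (50 μM) with and without LIF, and metformin (1 mM) with LIF. The 129/MSM line added an AICAR and an AICAR+LIF library at 10p. Reversion was followed in 1 line of each strain, all d8, d16 and 2–3p libraries are Oct4GIP, and no label says that libraries of a group came from separate cultures. The p-values therefore measure only the spread between these libraries.

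Library totals ran from 438771 to 5290163 counts, with a median of 2848382. The shallowest were AICAR+LIF at d8 (438771) and AICAR at d8 (956357). All 80 members had a count in every library, and the median member count in a library ranged from 13.0 to 138, so single-library values of the low members are imprecise. Levels are given as CPM, counts relative to the library total after TMM scaling, which is not corrected for gene length. The marker check set the d8 and d16 cultures apart from every other library. The summed level of 9 naive markers was 5951.8 CPM in naive cells, 4419.7 to 6843.2 in reverted cells, 550 and 1078.7 in the primed libraries and 16.6 to 160 in the cultures. In all d8 libraries Zfp42 and Dppa5a, which mark naive cells, were at 0. The summed level of 10 fibroblast markers was 19.7 to 112 CPM in reverted cells, 23.9 in naive cells, 64.0 and 610 in primed Oct4GIP and 129/MSM cells, 2863.6 to 3441.8 at d8 and 5638.8 to 50181.6 at d16. All libraries are labelled epiblast, but the d8 and d16 cultures did not carry the marker levels of pluripotent cells. In bulk samples, fewer cells of a type and less RNA per cell cannot be told apart.

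Some letter strings, which the selection did not use, were more frequent in the promoters of the members than in all promoters. RefSeq windows on GRCm38.p6, from 250 bases before to 50 bases after the start of the gene, were matched for 69 of the 78 symbols and for 18167 genes in all. Both strands were searched for 3 letter strings known as binding sequences of regulators of mitochondrial and housekeeping genes. The NRF1 sequence (GCGC, then A and any base, then GCGC) was in 13 of 69 member windows (18.8%, 95% Wilson interval 11.4 to 29.6%) against 6.70% of all windows. CCGGAAG, an ETS-family sequence, was in 24 (34.8%, 24.6 to 46.6%) against 12.2%. ATGGCGGC, a YY1 sequence, was in 12 (17.4%, 10.2 to 28.0%) against 3.25%. All 3 strings were thus more frequent among members than among all promoters, and 30 member windows held none of them. A match is a description of the letters in the window and not evidence of binding. Below are the 150 bases before the earlier of the RefSeq and the GENCODE start for Mrpl45, Mrps2 and Mrps18b, which differed most between reverted cells and cultures among members with a window, and for Mrps6, which went the opposite way. Capitals mark NRF1 matches. Mrpl45 (chr11:97315566-97315715, + strand) has 2 in the stretch shown, at 120 to 111 and at 38 to 29 bases before the start. The stretches of Mrps2 (chr2:28467916-28468065, + strand), Mrps18b (chr17:35916441-35916590, − strand) and Mrps6 (chr16:92058120-92058269, + strand) hold no match to any of the 3 strings. The whole window of Mrps18b holds 1 ETS match, outside the stretch shown.
Mrpl45: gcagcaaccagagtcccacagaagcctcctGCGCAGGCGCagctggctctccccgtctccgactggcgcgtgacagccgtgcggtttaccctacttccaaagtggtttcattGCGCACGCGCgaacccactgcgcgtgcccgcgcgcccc
Mrps2: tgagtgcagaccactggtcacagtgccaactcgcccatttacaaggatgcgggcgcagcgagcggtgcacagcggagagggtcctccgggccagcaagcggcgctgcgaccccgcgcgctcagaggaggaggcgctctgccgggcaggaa
Mrps18b: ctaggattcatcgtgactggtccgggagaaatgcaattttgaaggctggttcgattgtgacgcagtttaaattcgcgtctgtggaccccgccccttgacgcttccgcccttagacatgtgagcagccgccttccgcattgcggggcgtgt
Mrps6: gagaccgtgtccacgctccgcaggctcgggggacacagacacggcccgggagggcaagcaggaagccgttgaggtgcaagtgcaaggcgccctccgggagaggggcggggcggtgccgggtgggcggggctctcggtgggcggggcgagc

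The members were expressed in all cell states at moderate and unequal levels. Their mean over 22 libraries had a median of 33.0 CPM and ranged from 10.7 to 175 CPM. Per kilobase of exon, for 78 rows with a length, the median was 28.5 CPM per kb. Mrps21 (182 CPM per kb), Mrpl9 (113), Mrpl52 (63.6) and Mrps18b (63.2) stood at the top of this scale, and Mrps25 (7.96), Mrpl57 (9.90) and Mrps26 (10.2) at the bottom. The means of Mrps21 and Mrpl9 over 22 libraries were 78.1 and 175 CPM. In the naive and 129/MSM libraries alone, Mrps21 was at 12.1 to 19.5 CPM and Mrpl9 at 37.6 to 45.8 CPM. The members together took 0.348% of the counts in naive cells, 0.302% and 0.354% in primed cells, 0.402 to 0.419% in reverted cells at 2–3p and 0.336 to 0.420% at 10p. In the cultures the share was 0.222 to 0.277% at d8 and 0.233 to 0.263% at d16. No culture reached the share of any pluripotent library, and the reverted cells at 2–3p lay above the naive and the primed libraries. Mrpl9 alone gave 511 of 4194.1 CPM in AICAR and 529 of 4159.7 CPM in AICAR+LIF at passage 2. In metformin+LIF at 10p, the library with 0.420%, it gave 544 of 4227.3 CPM.

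**Figure D1:**
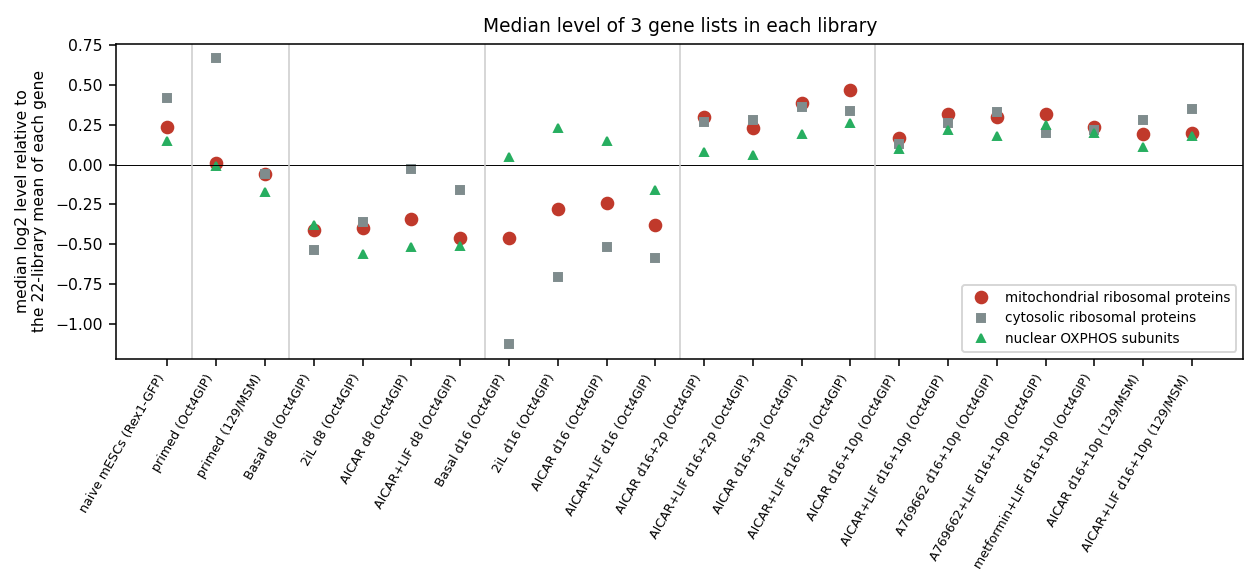
Median log2 level of gene lists in each of the 22 libraries, relative to each gene's mean over all libraries (vertical axis, log2 units), with libraries along the horizontal axis by cell state and a symbol each for the members, cytosolic ribosomal proteins and nuclear oxidative phosphorylation subunits. The member median lies between −0.46 and −0.24 in the 8 cultures and between 0.17 and 0.47 in the 11 reverted libraries.

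Most members moved with the rest of the list across libraries. The SD of a member's log2 level over the 22 libraries had a median of 0.455, against 0.709 for the 13742 genes with a mean of at least 5 CPM. As a description over 22 libraries that share lines and media, the correlation of a member with the median of the others had a median of 0.755, was above 0.7 for 45 of 80 members and was below 0 for 10. The lowest values were those of Mrps6 (−0.76), Mrps21 (−0.57), Mrpl48 (−0.48) and Mrps18a (−0.40). Mrps21 (SD 1.26), Mrps6 (1.16), Mrpl9 (1.15) and Mrps18b (1.10) varied most, while Mrpl30 (0.22), Mrpl52 (0.23) and 1 row of Mrps23 (0.23) varied least.

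The mitochondrial ribosomal protein genes were higher in reverted cells at 2–3p than in the d16 cultures, which include the AICAR and AICAR+LIF cultures that precede this expansion. In edgeR's quasi-likelihood test with Benjamini-Hochberg adjustment over 18739 genes, 46 of 80 members (57.5%) were higher and 3 (3.75%) were lower. Of all genes tested, 33.2% were higher and 37.9% lower, or 71.1% either way. The median log2 fold change was 0.70 over the members and −0.15 over all genes tested. Higher calls fell in both groups of names, with 28 of 49 Mrpl and 18 of 31 Mrps rows. The share of members called higher was above that of all genes and the share called lower was below it.

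Among the large-subunit members, Mrpl15 (1:4773206-4785739) and Mrpl45 (11:97315716-97329920) differed most. Mrpl45 is the subunit that helps to hold the particle at the inner membrane. Mrpl15 stood at 133, 162, 175 and 161 CPM in the reverted libraries and at 34.9, 34.9, 43.1 and 36.5 CPM in Basal, 2iL, AICAR and AICAR+LIF at d16. Its log2 fold change was 2.08 ± 0.17 (SE, n = 4 and 4, edgeR adjusted p = 2.54e-09). Mrpl45 stood at 116, 118, 149 and 157 CPM against 32.0, 39.3, 38.7 and 37.3 CPM, a log2 fold change of 1.88 ± 0.19 (edgeR adjusted p = 2.65e-08). For both genes the lowest reverted library was far above the highest culture. Mrpl12, which forms the flexible stalk that recruits translation factors, was at 92.4 to 110 CPM in reverted cells and 35.6 to 47.7 CPM at d16 (log2 fold change 1.31, edgeR adjusted p = 8.20e-08). Mrpl47 (1.69 ± 0.19) and Mrpl44 (1.58 ± 0.16) also passed the test, with edgeR adjusted p = 1.56e-07 and 4.58e-08. Mrpl44 belongs to the proteins that only mitochondrial ribosomes carry. Mrpl3, at the core of the large subunit, was at 64.2 to 77.0 CPM in reverted cells and 39.9 to 61.5 CPM at d16 (0.52 ± 0.17, edgeR adjusted p = 0.00943).

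Among the small-subunit members, Mrps18b (17:35910379-35916389) showed the widest gap of those higher in reverted cells. It stood at 77.2, 74.9, 76.3 and 105 CPM in reverted cells and at 12.4, 10.4, 18.7 and 24.1 CPM in Basal, 2iL, AICAR and AICAR+LIF at d16 (log2 fold change 2.35 ± 0.25, edgeR adjusted p = 6.99e-08). Mrps2 (2:28468066-28471178), a homologue of bacterial S2, was at 121 to 127 CPM against 33.4 to 35.8 CPM, with little spread in either group (1.83 ± 0.13, edgeR adjusted p = 2.21e-10). Mrps5, a homologue of bacterial S5, was at 127 to 159 CPM against 38.9 to 53.5 CPM (1.57 ± 0.16, edgeR adjusted p = 5.16e-08). Mrps12, part of the decoding centre, was at 30.4 to 43.2 CPM against 10.7 to 14.8 CPM (1.54 ± 0.20, edgeR adjusted p = 7.97e-07). None of these ranges overlapped. Mrps36, also described as a component of the 2-oxoglutarate dehydrogenase complex, was not called, with 14.5 to 20 CPM against 14.7 to 22.5 CPM (−0.18 ± 0.22, edgeR adjusted p = 0.474).

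Only 3 members were lower in the reverted cells than at d16 by the edgeR test, namely Mrps6 (log2 fold change −3.06 ± 0.33, adjusted p = 7.66e-08), Mrpl48 (−0.66 ± 0.18, adjusted p = 0.00237) and Mrps18a (−0.56 ± 0.21, adjusted p = 0.0197). Mrpl48 (7:100545751-100608301) was at 16.9 to 22.8 CPM in reverted cells and at 30.9 to 35.6 CPM at d16, with no overlap. Mrps18a overlapped, since the Basal d16 library was at 22.8 CPM and the reverted libraries at 22.5 to 29.5 CPM. Fibroblast markers moved with this comparison: all 10 were lower in reverted cells by the same test and all 9 naive markers were higher. Their part in the member differences was not tested.

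**Figure D2:**
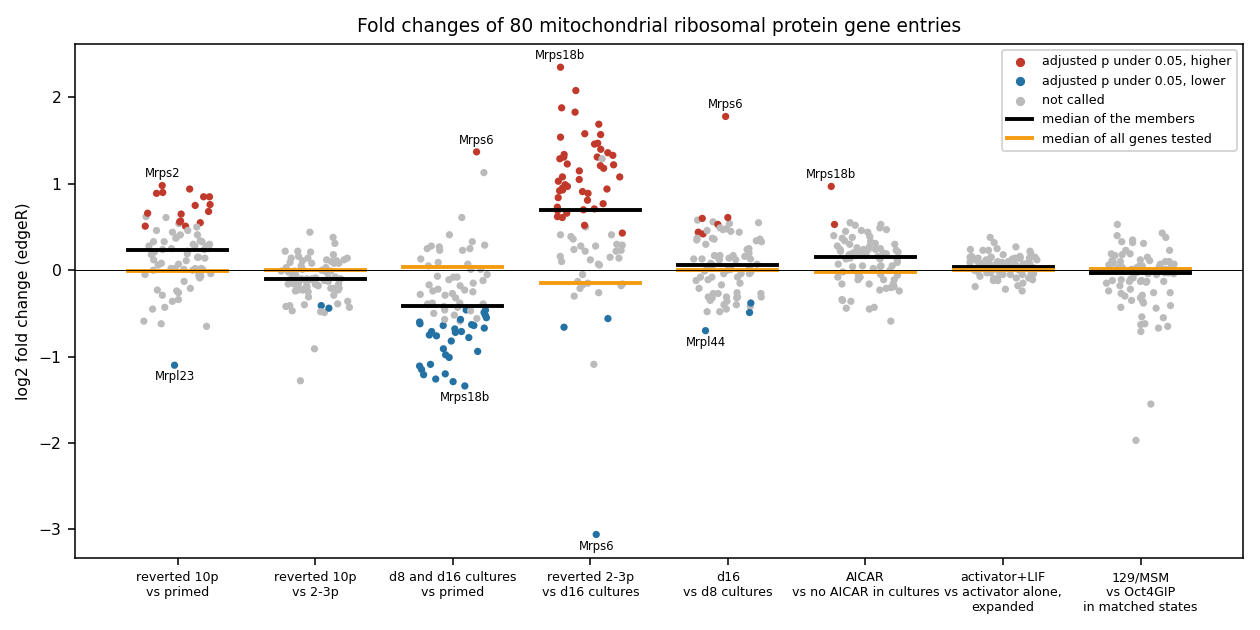
Log2 fold change of each of the 80 members (vertical axis) in each of the 8 comparisons (horizontal axis), red where edgeR called the member higher, blue where lower and grey where not called, with bars for the medians of the members (black) and of all genes tested (orange). In reverted 2–3p against d16, 46 members are red and 3 are blue.

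Other genes of the pathway, taken from lists of fixed membership, are given for the same comparison. Of 27 assembly factors of the mitochondrial ribosome, 16 were higher in reverted cells at 2–3p than at d16 and 0 were lower, with a median log2 fold change of 0.68. Of 14 mitochondrial translation factors, 7 were higher and 2 lower. Of 83 nuclear genes for oxidative phosphorylation subunits, 21 were higher and 11 lower, with a median of 0.12. The 13 mRNAs encoded in the mitochondrial genome, which this ribosome translates, had a median of −0.41, with 0 higher and 7 lower. Of 82 cytosolic ribosomal protein genes, 81 were higher and 0 lower, with a median of 1.01. Of all genes tested, 33.2% were higher and 37.9% lower. The median fold changes of the transcripts translated by the mitochondrial ribosome and of the genes of its own proteins thus had opposite signs. The library medians of the mitochondrially encoded list overlapped, with −0.07 to 0.45 at 2–3p and 0.30 to 0.73 at d16 (log2, relative to each gene's mean). The cytosolic list had a larger median difference than the members.

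The cultures also lay below the primed cells, of which only the Oct4GIP library is of the line they were started from. Comparing the 8 libraries of d8 and d16 with the 2 primed libraries, edgeR called 32 of 80 members lower (40.0%) and 1 higher (1.25%), against 19.4% and 18.1% of 18739 genes. The median log2 fold change was −0.42 over the members and 0.04 over all genes. Lower calls were 18 of 49 Mrpl and 14 of 31 Mrps rows, so the share of lower calls exceeded the background in both groups of names. The 33 calls became 19 (18 lower) without the primed Oct4GIP library and 14 (all lower) in counts thinned to the shallowest library. The cultures are of 1 line, plated on MEF feeders and in other media, and the primed libraries are of 2 lines, of which Oct4GIP was kept without feeders. Line, feeders and medium cannot be told apart from the time in culture.

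Mrps18b measured 41.6 CPM in the primed library of Oct4GIP and 42.6 CPM in that of 129/MSM, and its 8 culture values had a lowest of 10.4, a median of 16.2 and a highest of 24.6 CPM (log2 fold change −1.34 ± 0.26, edgeR adjusted p = 0.000455). Mrpl1, a homologue of bacterial L1, was at 34.7 and 46.7 CPM in the primed libraries and at 14.8, 17.7 and 22.7 CPM as the lowest, median and highest culture (−1.20 ± 0.19, edgeR adjusted p = 6.55e-05). Mrps27, an RNA-binding pentatricopeptide repeat protein, was at 52.7 and 66.2 CPM against 19.2, 27.8 and 33.5 CPM (−1.15 ± 0.19, edgeR adjusted p = 0.000136). No culture reached a primed library for these 3 genes. Mrpl24 (−1.11 ± 0.19, edgeR adjusted p = 0.000208) and Mrps28 (−1.09 ± 0.24, edgeR adjusted p = 0.00158) were lower as well. The 2 rows of Mrps10 had log2 fold changes of −1.26 ± 0.27 and −1.21 ± 0.26 (edgeR adjusted p = 0.00105 and 0.00113). Mrpl15 and Mrpl45 were among the other members called lower here, and Mrps6 was the only member called higher (1.37 ± 0.38, edgeR adjusted p = 0.00704).

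In this comparison 73 of 82 cytosolic ribosomal protein genes were lower and 0 higher (median −0.83), and 6 of 13 mitochondrially encoded genes were higher and 0 lower (median 0.37). Assembly factors had 9 lower and 1 higher of 27. Fibroblast markers were higher for 8 of 10 genes, neural markers for 3 of 4 and contractile markers for 3 of 5 (1 was lower), with the summed neural level at 214 and 335 CPM in primed cells and 303 to 2027.9 CPM in the cultures. Their part in the member differences was not tested.

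Reverted cells at 10p (7 libraries) held higher levels of a subset of the members than primed cells (2 libraries). By edgeR's test, 16 of 80 members were higher and 1 (1.25%) was lower, against 16.7% and 19.9% of 18739 genes (36.6% either way). The share called higher was near the background, whereas the share called lower was below it. The median log2 fold change was 0.23 over the members and −0.01 over all genes, and 59 of 80 members had a value above 0. Without scaling factors 9 members were called higher and 3 lower, with a median of 0.13. This comparison uses the same primed libraries as that of the cultures.

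Mrps2 stood at 61.4 CPM in the Oct4GIP and at 67.3 CPM in the 129/MSM primed library. Its 7 reverted values at 10p had a lowest of 108, a median of 126 and a highest of 155 CPM (log2 fold change 0.98 ± 0.15, edgeR adjusted p = 2.84e-05). Mrps5 stood at 79.1 and 54.3 CPM against 112, 121 and 151 CPM (0.94 ± 0.19, edgeR adjusted p = 0.000632). Both genes were higher in every reverted library than in either primed library. Mrps12 (0.89 ± 0.23, adjusted p = 0.00489), Mrps18b (0.85 ± 0.28, adjusted p = 0.0214) and Mrps24 (0.90 ± 0.28, adjusted p = 0.0144) were the other small-subunit members called higher by edgeR. Mrps24 shares exon sequence on the same strand with Urgcp, so its reads are uncertain.

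Of the large subunit, Mrpl35 (0.85 ± 0.19, adjusted p = 0.00173), Mrpl4 (0.76 ± 0.20, adjusted p = 0.00465) and Mrpl19 (0.75 ± 0.21, adjusted p = 0.00742) had the highest fold changes of the members called by edgeR. Mrpl23 (7:142532686-142540747), a protein at the exit of the peptide tunnel, was the only member called lower. Its primed libraries were at 57.7 (Oct4GIP) and 40.7 CPM (129/MSM). At 10p its reverted values had a lowest of 18.3, a median of 23.4 and a highest of 29.8 CPM (−1.10 ± 0.23, edgeR adjusted p = 0.000822). In the d8 and d16 cultures, measured against the same primed libraries, Mrpl23 was at 14 to 35.6 CPM (−1.29 ± 0.23, edgeR adjusted p = 0.000223), so the primed libraries stood above all other libraries for this gene.

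The lines were also set apart. The 17 members called were selected by a test on these same libraries, so their separation within lines is partly built in and is only a description. Of the 17, 16 had all 7 reverted libraries past the primed library of their own line, the exception being Mrpl15. Its AICAR library of Oct4GIP at 10p was at 101 CPM and the primed library of that line at 103 CPM. Within Oct4GIP, edgeR called 11 members higher and 5 lower (all genes 15.1% and 14.9%, 30.1% either way). Within 129/MSM it called 3 higher and 0 lower (7.87% and 10.1%), namely Mrps5 (log2 fold change 1.12), Mrps2 (0.92) and Mrpl15 (0.83). In each of these fits, and in the interaction, the primed arm is 1 library, which is assumed to vary as the libraries of the other groups do. The interaction of line and state passed the edgeR test for 0 of 80 members (6 at an unadjusted p under 0.05), against 1.38% of all genes (1.05% higher and 0.326% lower). Without the primed Oct4GIP library, 5 members were called higher and 0 lower, and without the primed 129/MSM library 11 were higher and 4 lower. Among other lists over both lines, 23 of 83 oxidative phosphorylation genes were higher and 2 lower (median 0.22). Of 14 translation factors, 5 were higher and 1 lower. Of 82 cytosolic ribosomal protein genes, 4 were higher and 2 lower (median −0.12), but the lines went opposite ways. The cytosolic median was −0.43 within Oct4GIP and 0.36 within 129/MSM. The summed cytosolic level was 65805.1 CPM in the primed Oct4GIP library and 39417.1 CPM in that of 129/MSM. Fibroblast markers were lower for 8 of 10 genes and naive markers higher for 8 of 9, and their part was not tested.

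**Figure D3:**
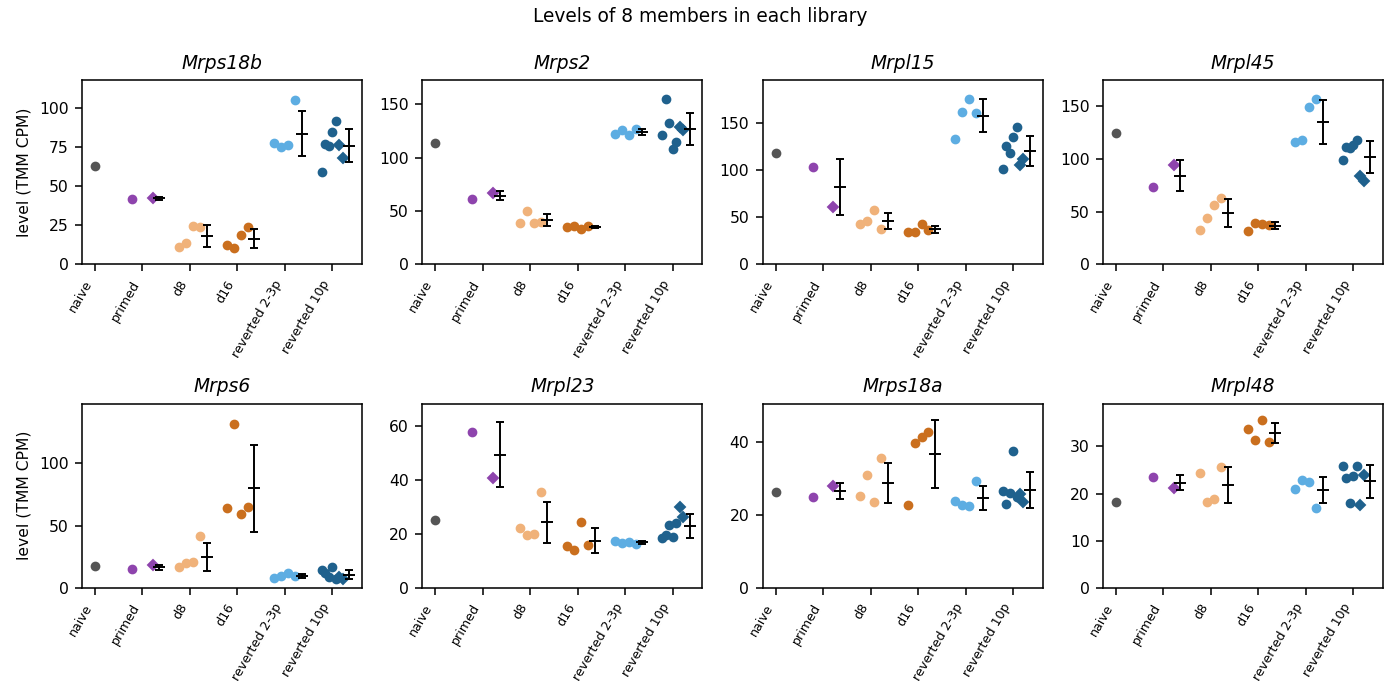
Levels of 8 members in all 22 libraries (vertical axis, CPM after TMM scaling) by cell state, with a point for each library, diamonds for 129/MSM libraries and bars for the mean ± SD. Mrps18b, Mrps2, Mrpl15 and Mrpl45 are lowest in the cultures, Mrps6 is highest at d16 with 132 CPM in 2iL, and Mrpl23 is highest in the primed libraries.

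Mrps18a, Mrps18b and Mrps18c are 3 paralogues of bacterial S18 that do not occupy the same place in the particle: the first is a large-subunit protein in assembled mammalian mitochondrial ribosomes, and the other two belong to the small subunit. Of their summed CPM, Mrps18b took 52.9 to 63.3% in the 11 reverted libraries, 56.7% in naive cells, 44.9% and 49.1% in primed cells and 15.2 to 37.7% in the 8 cultures. Mrps18a took 16.8 to 24.7% in reverted cells, 29.6% in both primed libraries and 36.2 to 57.9% in the cultures. Mrps18c took 18.9 to 26.3% in reverted cells and 18.3 to 28.6% in the cultures. The shares of Mrps18a and Mrps18b did not overlap between cultures and reverted cells, while those of Mrps18c did. These shares are of CPM without length correction and compare libraries, not genes.

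**Figure D4:**
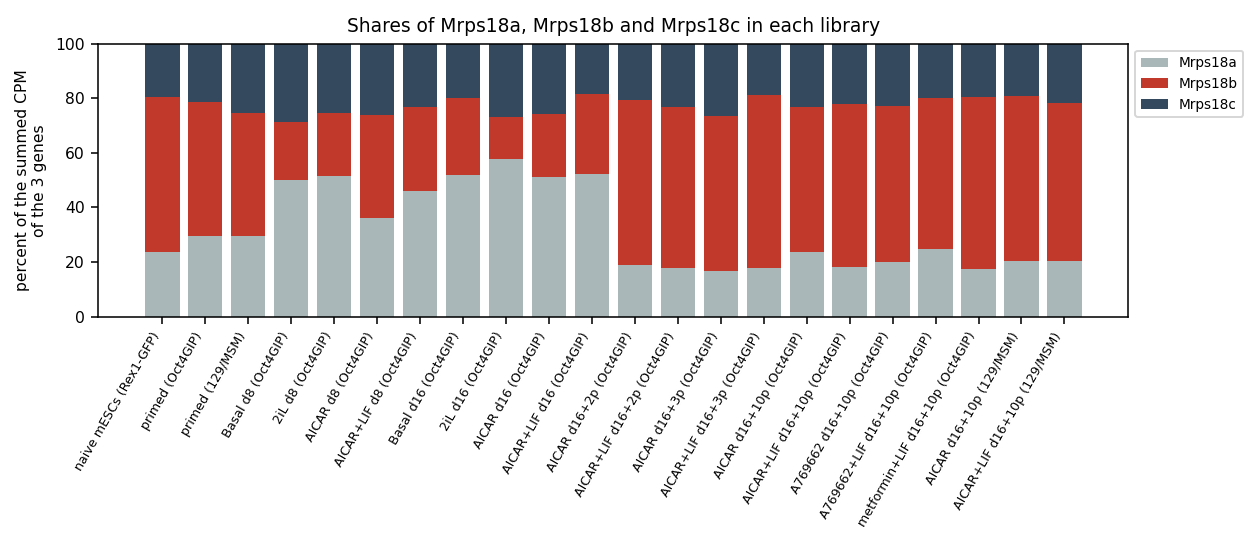
Share of Mrps18a, Mrps18b and Mrps18c in their summed CPM (vertical axis, percent), as stacked bars for each of the 22 libraries, grouped by cell state. Mrps18b takes 52.9 to 63.3% in reverted cells and 15.2 to 37.7% in the d8 and d16 cultures.

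Mrps18b also differed with AICAR within the cultures. It was at 10.9 and 13.7 CPM in Basal and 2iL at d8 and at 12.4 and 10.4 CPM at d16. With AICAR and AICAR+LIF it was at 24.6 and 23.7 CPM at d8 and at 18.7 and 24.1 CPM at d16. The 4 cultures with AICAR were all above the 4 without it (22.8 ± 2.74 against 11.9 ± 1.5 CPM, mean ± SD, n = 4 each). The d8 values with AICAR come from the shallowest libraries and are imprecise. There, 3 counts amount to 2.84 CPM in AICAR and 5.93 CPM in AICAR+LIF. With day as a term, edgeR gave a log2 fold change of 0.97 ± 0.22 (adjusted p = 0.0305 over 14026 genes). Mrpl3 was the other member called higher (0.53 ± 0.14, edgeR adjusted p = 0.0490). It was at 67.2, 51.4, 61.5 and 59.8 CPM with AICAR and at 44.9, 44.8, 39.9 and 42.9 CPM without. With 2 of 80 members higher (2.50%) and 0 lower, the members were close to the 3.54% of all genes called higher and below the 6.06% called lower (9.60% either way). Both calls were lost when any 1 of 7 of the 8 libraries was left out, and 3 members were called without the 2iL d16 library. Marker lists moved with AICAR as well. By the same test 3 of 5 primed markers were higher (median log2 fold change 1.25), as were 2 of 4 naive markers (2.05), 1 of 4 contractile markers (1.60) and 2 of 10 fibroblast markers (−0.47), and none was lower. The summed primed markers were at 150 to 231 CPM with AICAR and 47.3 to 142 CPM without, the contractile markers at 425 to 1338.3 and 190 to 701 CPM, and the naive markers at 72.0 to 160 and 16.6 to 80.3 CPM. Their part was not tested.

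Mrps6 ran against the rest of the list. This gene for the homologue of bacterial S6 lies at 16:92058270-92112227 on the + strand. It was at 64.3, 132, 59.0 and 64.7 CPM in Basal, 2iL, AICAR and AICAR+LIF at d16 and at 17.0, 19.9, 20.8 and 41.5 CPM in the same media at d8. In the 11 reverted libraries it had a lowest of 6.85, a median of 9.12 and a highest of 16.6 CPM, with 15.1 and 18 CPM in primed and 17.7 CPM in naive cells. Every d16 library was above every other library. From d8 to d16 the log2 fold change was 1.78 ± 0.32 (n = 4 and 4, edgeR adjusted p = 0.000501).

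Slc5a3, the sodium/myo-inositol cotransporter, lies on the same strand at 16:92058322-92087473, inside the span of Mrps6, and has exon sequence in common with it. Their RefSeq starts are 14 bases apart and their promoter windows share 286 bases. Slc5a3 was at 111, 162, 103 and 110 CPM at d16, at 29.0 to 38.2 CPM at d8 and at 3.14 to 16.6 CPM in reverted cells. The primed Oct4GIP library was at 48.2 CPM for Slc5a3 but at 15.1 CPM for Mrps6. Reads from shared sequence can fall to either gene, so the transcript table was consulted. The Mrps6 transcript ENSMUST00000138961, at 16:92106261-92112227 and so beyond the end of Slc5a3, had 41 to 91 counts at d16 (12.7 to 32.1 CPM, not TMM-scaled) and 4 to 16 counts in reverted cells (1.48 to 4.97 CPM). Gm49711, on the same strand, also shares exon sequence with Mrps6 and had 17 to 43 counts at d16 and 2 to 9 in reverted cells. The exons of ENSMUST00000138961 share 0 bases with those of Slc5a3 and of Gm49711, so the difference was also present in reads assigned to a transcript without this shared sequence. Mrps34, Mrpl53 and Mrpl33 likewise share exon sequence on the same strand with a counted gene, and their values are uncertain. Exons of 26 members overlap a counted gene on the opposite strand, Mrpl44, Mrpl47 and Mrpl48 among them. The study does not state whether its counts used the strand of the reads.

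Mrpl9 and Mrps21, 2 members on chromosome 3, varied between lines and between libraries of 1 cell state. Mrpl9 (3:94443318-94451130) was at 186 CPM in primed Oct4GIP cells and at 45.8 CPM in primed 129/MSM cells. In reverted Oct4GIP cells it was at 511, 529, 153 and 210 CPM at 2–3p. At 10p it was at 50 CPM in AICAR, 172 CPM in AICAR+LIF, 111 CPM in A769662, 55.0 CPM in A769662+LIF and 544 CPM in metformin+LIF. The naive library and the reverted 129/MSM libraries were at 41.3, 37.6 and 40.0 CPM. Mrps21 (3:95862634-95871519) was at 12.8 to 86.1 CPM in reverted Oct4GIP cells, at 98.9 to 189 CPM in the cultures and at 12.1 to 19.5 CPM in the 4 libraries of other lines. Reverted Oct4GIP libraries of the same passage thus covered nearly the whole range of Mrpl9 over the 22 libraries.

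Genes between them were examined after these values were seen. The stretch from Mrpl9 to Mrps21 spans 1.43 Mb and holds 27 other genes with a mean of at least 50 CPM. Each gene was set against its mean in 3 libraries of other lines (naive and reverted 129/MSM). The median log2 ratio of the 27 genes was −0.10 to 0.04 in the libraries of the other lines, most of which form the reference, and 0.11 to 2.40 in the 18 Oct4GIP libraries. It was 2.00 in primed Oct4GIP cells, 1.45 to 2.02 at 2–3p, 1.95 to 2.40 at d8 and 1.96 to 2.2 at d16. At 10p it was 0.73 in AICAR, 1.91 in AICAR+LIF, 1.5 in A769662, 0.11 in A769662+LIF and 2.03 in metformin+LIF. The A769662+LIF library was thus close to the other lines and the metformin+LIF library was not.

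Over the 77 genes within 8 Mb on either side, the median log2 ratio was −0.09 to 0.22 in the Oct4GIP libraries. Taking each gene's median over the 4 libraries at 2–3p, 22 of 27 genes in the stretch had a log2 ratio above 1. All 7 genes within 0.4 Mb past Mrps21 did so too, against 2 of the remaining 70 flanking genes. Mrpl9 and Mrps21 correlated with the median of the stretch over the 22 libraries (r = 0.80 and 0.96, a description over libraries that share a line). The highest Mrpl9 values went past the stretch. Its log2 ratio was 3.67 and 3.72 in AICAR and AICAR+LIF at passage 2 and 3.76 in metformin+LIF at 10p. The stretch was at 1.97, 2.02 and 2.03 in these libraries. In primed Oct4GIP cells Mrpl9 was at 2.22 and the stretch at 2.0. DNA copy number was not measured, and the cause was not tested. Primed and reverted libraries differ in the lines they hold, and the stretch also varied within Oct4GIP, from 0.11 to 2.03 at 10p. Comparisons of cell state for these 2 members are therefore also comparisons of this stretch, even among Oct4GIP libraries alone.

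**Figure D5:**
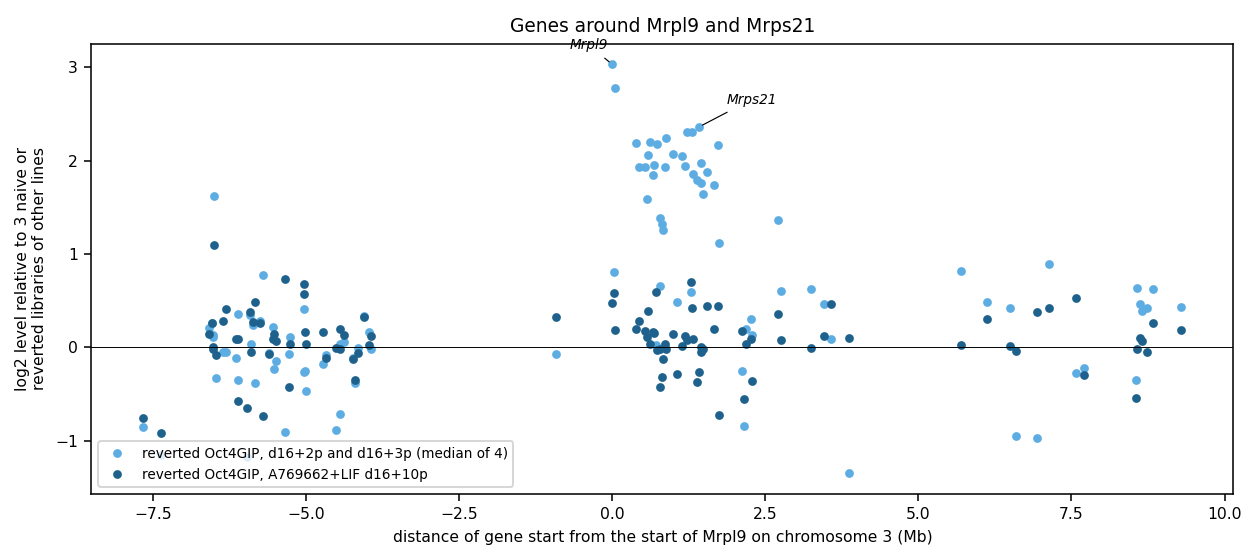
Log2 ratio of genes along chromosome 3 to their mean in 3 libraries of other lines (vertical axis, log2 units) by distance of the gene start from that of Mrpl9 (horizontal axis, Mb), as the median of the 4 reverted Oct4GIP libraries at 2–3p and for A769662+LIF at 10p. Of the 27 genes between Mrpl9 and Mrps21, 22 lie above 1 in the first series.

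The remaining comparisons called few members. Between 129/MSM and Oct4GIP in matched states, edgeR called 0 of 80 members (all genes 0.0926% higher, 0.0232% lower and 0.116% either way), with 6 at an unadjusted p under 0.05. Mrpl9 had a log2 fold change of −1.55 (adjusted p = 0.189) and Mrps21 of −1.97 (adjusted p = 0.188) in that test. DESeq2 and the fit without a filter on low counts each called both genes. For activator+LIF against activator alone in expanded cells, edgeR called 0 of 80 members and 0 of 12821 genes (0.00%). There, 2 members and 310 genes had an unadjusted p under 0.05, and DESeq2 and limma-voom called 0 members. The median log2 fold change over members was 0.04. In simulated counts of the LIF comparison, the test found 39 of 100 genes given a log2 change of 1 and 97 of 100 given a log2 change of 2. The simulated counts held no differences between lines, passages or pairs, so these shares may not carry over to the real libraries.

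From 2–3p to 10p the members differed little. By edgeR's test 0 were higher and 2 were lower (2.50%), against 4.75% and 4.61% of all genes (9.35% either way), with a median of −0.10 over members. Mrpl44 went from 48.5, 45.6, 50.5 and 48.1 CPM to 32.4 to 38.8 CPM (−0.44 ± 0.14, edgeR adjusted p = 0.0468). Mrpl50 went from 59.8, 55.9, 63.9 and 62.5 CPM to 43.2 to 49.5 CPM (−0.41 ± 0.11, edgeR adjusted p = 0.0288). Neither range overlapped. Of 22 alternatives, the call of Mrpl44 was lost in 16 and that of Mrpl50 in 9, both of them without scaling factors, without the filter, after thinning and with AICAR and AICAR+LIF libraries of Oct4GIP alone.

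From d8 to d16, 6 members were higher (7.50%) and 3 lower (3.75%) by edgeR's test, against 14.6% and 11.7% of all genes, so the members were called less often than genes at large. The median log2 fold change over members was 0.06. Without scaling factors it was −0.05, and 2 members were called higher and 4 lower. Beside Mrps6, the higher members were Mrpl48 (0.61 ± 0.18, adjusted p = 0.0186), Mrpl27 (0.60 ± 0.17, adjusted p = 0.0143), Mrps14 (0.53 ± 0.16, adjusted p = 0.0207), Mrpl17 (0.44, adjusted p = 0.0463) and Mrpl10 (0.42, adjusted p = 0.0477) by edgeR. Mrpl44 (−0.70 ± 0.17, adjusted p = 0.00526), Mrps5 (−0.49, adjusted p = 0.0330) and Mrpl50 (−0.38, adjusted p = 0.0471) were lower by edgeR. The d8 and d16 libraries share their 4 treatments, and with treatment as a block Mrps6 alone remained called, as it did without the filter on low counts. Of 18 alternatives, the call was lost in 13 for Mrpl50, 12 for Mrpl10, 10 for Mrpl17 and 8 for Mrps5, and in 0 for Mrps6. In the same comparison 45 of 83 nuclear oxidative phosphorylation genes and 7 of 13 mitochondrially encoded genes were higher and none of either list was lower, while 33 of 82 cytosolic ribosomal protein genes were lower and 0 higher. Their medians were 0.52, 0.65 and −0.43. Fibroblast markers were higher at d16 for 8 of 10 genes, and their part was not tested.

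The naive library has no replicate, so its values are set beside those of reverted cells at 10p without a test. Of the 80 members, 11 were above all 7 reverted libraries and 12 below, against 14.9% and 12.8% of 13742 genes with a mean of at least 5 CPM. The median log2 ratio to the reverted mean was −0.02 for members and for all genes. Mrps15 was at 33.5 CPM in naive cells and at 43.3 to 64.6 CPM in reverted cells. Mrpl4 was at 45.9 CPM against 58.4 to 78.8 CPM, and Mrps5 at 91.5 CPM against 112 to 151 CPM. Mrps6 (17.7 CPM against 6.85 to 16.6 CPM) and Mrpl34 (27.9 CPM against 11.2 to 26.7 CPM) were above. Most members of the naive library lay within the range of the reverted libraries, as did most of all genes, so this is not particular to the members.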

How the data were processed

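RNA was sequenced from 22 libraries as stranded poly(A) single reads. The authors aligned reads with Bowtie2 2.2.5 (version from the submitters' processing notes) to Ensembl mouse transcripts on GRCm38 and deposited raw read counts per gene and per transcript, the unit used here. Gene positions and exon overlaps came from GENCODE M21 on GRCm38, and promoter windows from RefSeq on GRCm38.p6.

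Counts were tested with edgeR 4.0.16 (quasi-likelihood, TMM, filterByExpr) in R 4.3.3, with 1 fit over all groups for comparisons of cell states and adjusted p-values over all genes tested, threshold 0.05. Separate fits served AICAR with a day term and line with a term for matched state. The LIF fit had a term for pairs of the same line, activator and passage. DESeq2 1.42.0, limma-voom 3.58.1, no filter, a minimum of 10 counts, no scaling factors, thinning to 438771 counts and leaving out each library were alternatives. Summing rows of 1 symbol and splitting by line were chosen after seeing the data. Log2 levels used an added 0.5 CPM. Members named were up to 8 per direction by fold change among those called, with a mean of at least 5 CPM, plus the 3 extremes each of level per kb and of variability, the Mrps18 paralogues, Mrpl12, Mrps12, Mrpl3 and Mrps36. Mrpl9, Mrps21 and Slc5a3 were followed up after their values were seen. Intervals cover counting error only. Members and lists were chosen with earlier results of these data known. The fits were tested on simulated data: in reverted 10p against primed, 42 of 100 genes given a log2 change of 1 and 90 of 100 given a log2 change of 2 were found. Apart from the change given, each simulated gene had the same mean level in all libraries, unlike the real data.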

Additional observations from a re-analysis of the deposited data

Results flagged for a closer look

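In 60 groups of 4 to 10 values, the highest or lowest library was tested for its gap to the others, and 10 groups held a library that stood apart. Chance flags about 1 in 20 groups. No cause was tested.

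Among reverted cells at 2–3p, Mrps18b was at 105 CPM in AICAR+LIF at passage 3, above the others of its group, and Mrps21 was at 39.2 CPM in AICAR at passage 3, below them. At 10p, Mrps18a was at 37.7 CPM in A769662+LIF and Mrpl9 at 544 CPM in metformin+LIF, both the highest of their group. Among the d8 cultures, Mrps6 at 41.5 CPM and Mrpl23 at 35.6 CPM stood out as highest in AICAR+LIF, the shallowest library with 438771 counts. Mrpl9 at 173 CPM in AICAR and Mrps2 at 49.8 CPM in 2iL were the highest of the d8 cultures for those genes. Among the d16 cultures, Mrps18a was lowest in Basal at 22.8 CPM, and Mrps6 was highest in 2iL at 132 CPM.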

How the results depend on the processing

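No alternative reversed the sign of a named member's fold change. Without scaling factors the d16 against d8 comparison turned from 6 members higher and 3 lower to 2 higher and 4 lower, and its member median from 0.06 to −0.05. For reverted 10p against primed, the 17 members called became 11 without a filter on low counts and 5 in counts thinned to the shallowest library. Leaving out single libraries gave 5 to 18, with 5 without the primed Oct4GIP library. For reverted 10p against 2–3p, the 2 members called became 4 with DESeq2 and 4 with voom. They became 0 without scaling factors, 0 without the filter, 0 after thinning and 0 with AICAR and AICAR+LIF of Oct4GIP alone, and leaving out libraries gave 0 to 2. For the cultures against primed, the 33 members called became 14 after thinning, and leaving out libraries gave 19 to 35, with 19 without the primed Oct4GIP library. For d16 against d8, the 9 members called became 1 without the filter, 2 after thinning and 1 with treatment as a block, and leaving out libraries gave 3 to 9, with 3 without the 2iL library of d8 and 5 without that of d16. For AICAR in the cultures, the 2 members called became 1 without the filter and 0 without the day term, and leaving out libraries gave 0 to 3. For the lines, the 0 members called became 2 with DESeq2 and 2 without the filter, and leaving out libraries gave 0 to 3, with 3 without either primed library. The cause of these changes was not tested, except that thinning leaves fewer counts and leaving out a library fewer samples. In reverted 2–3p against d16, the count of 49 stayed between 36 and 54. The LIF comparison called 0 members in every alternative run. In 150 bases around the start, the shares of member promoters with the NRF1, ETS and YY1 strings were 17.4, 30.4 and 15.9%, against 5.16, 9.40 and 2.54% of all promoters. Among single named members, 627 values kept their call and 130 lost it.

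In simulated counts with the depths of these libraries, the line comparison found 4 of 100 genes given a log2 change of 1 and 65 of 100 given a log2 change of 2, and the AICAR comparison 21 and 85. Cell states and days did not differ in these simulated counts, unlike in the real libraries.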
